A study of Mus musculus with 14 samples.

Results

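The 64 genes described here build autophagosomes, sense nutrients upstream of them, or form the proton pump that acidifies the lysosomes in which autophagosomes end. They were matched by gene name, and the names were chosen with earlier results of these data known. The names cover every Atg gene, the ATG8 family (Gabarap, Gabarapl1, Gabarapl2, Map1lc3a and Map1lc3b), Ulk1 to Ulk4, Becn1, Wipi1, Wipi2 and Rb1cc1. Also covered are the cargo receptors Sqstm1, Nbr1 and Optn, the regulators Mtor, Rptor, Deptor and Tfeb, and the membrane proteins Lamp1 and Lamp2. The remainder are all genes named for the vacuolar H+-ATPase (V-ATPase). The members are 64 of the 55401 genes in the deposited count table, and 57 of them passed the filter on low counts and were tested. By class they are 26 core ATG genes, 24 V-ATPase genes, 5 ATG8 genes, 4 mTOR and TFEB genes, 3 cargo receptors and 2 LAMP genes.

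The RNA came from wild-type C57BL/6 mice, in which AAVretro-EGFP, a recombinant virus that enters axon terminals and travels back to the cell body, had been placed in PrL or in MeA, at 0.1 µl per injection. Each library was made from 1 tube of 4 to 5 green neurons taken from PiC with a micropipette, and the names PiC, PrL and MeA are those of the labels. The 4 groups were PiC neurons labelled from PrL in females (female PiC-PrL, n = 4) and in males (male PiC-PrL, n = 4), and PiC neurons labelled from MeA in females (female PiC-MeA, n = 3) and in males (male PiC-MeA, n = 3). All 14 libraries carry the virus, so there is no uninjected control, and no age is stated in the sources used here. Whether each tube came from its own animal is not stated, so the p-values measure only the spread between these samples, which may be technical. The series is about sexually dimorphic expression in PiC neurons, and its 4 groups allow male to be compared with female within a projection and PiC-MeA with PiC-PrL within a sex.

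Autophagy starts when the ULK1 kinase complex, held in check by the nutrient-sensing kinase mTOR, is released and a membrane sac grows around cargo. ATG8 proteins, small ubiquitin-like proteins that include GABARAP and LC3, are attached to the lipid of this membrane by the core ATG enzymes and bind cargo receptors such as SQSTM1 (p62). The closed autophagosome fuses with a lysosome, whose acid comes from the V-ATPase, a rotary pump with a cytosolic V1 part that splits ATP and a membrane V0 part that carries protons. In neurons the same pump also acidifies synaptic vesicles and so drives the loading of transmitter.

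Total counts ran from 6132985 to 15392217 per library. The 3 male PiC-MeA libraries stood apart, with 18964 to 20014 genes detected by 1 or more counts, where the remaining 11 had 12479 to 14908, and with the lowest totals, up to 10572618 against at least 11755389. Members took 0.730% to 1.37% of the counts in these libraries and 1.00% to 1.83% in the remaining 11. Mitochondrial genes took 4.80%, 9.23% and 15.3% of the counts in male PiC-MeA replicates 1 to 3. In the remaining 11 libraries they took 3.29% to 12.2%. Of the 6 neuronal markers, 5 had counts and Tubb3 was listed at 0 in all 14 libraries. The summed level of 6 astrocyte markers was 977 to 1146 CPM (a gene's count relative to the library total, after scaling by the trimmed mean of M-values) in male PiC-MeA, 262 to 387 in female PiC-MeA, with Aqp4 and Gjb6 at 0 there, 568 to 1414 in male PiC-PrL and 629 to 1054 in female PiC-PrL. The 6 inhibitory neuron markers summed to 160 to 5252 CPM in female PiC-PrL and 99.7 to 399 CPM in male PiC-PrL. In PiC-MeA they summed to 35.7 to 92.0 CPM in females and 75.2 to 1402 CPM in males. The 5 oligodendrocyte markers summed to 256 to 1985 CPM over the libraries. Whether these features have a part in the results below was not tested. Fits with the number of detected genes are given below. That number was higher in every male PiC-MeA library than in any other, so such a fit cannot separate it from the group. In tubes of pooled cells, fewer cells of a type and less RNA per cell cannot be told apart.

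TFEB, a transcription factor released to the nucleus when mTOR is inactive, is known to bind a palindromic motif in promoters of lysosomal and autophagy genes. The motif TCACGTGA was therefore searched on both strands in the RefSeq promoters (build GRCm38.p6) of the 52 members that matched by symbol, from 250 bases before to 50 bases after each transcription start. It was found in 4 of 60 member promoters (6.67%), against 320 of all 32851 promoters of the same length (0.974%). Of the 4, 3 belong to the V-ATPase, and the fourth is Atg3, the enzyme that passes ATG8 proteins to their lipid. The shorter core CACGTG, which every TCACGTGA contains, was in 9 of the 60 (15%) and in 7.15% of all promoters. A match is only a description of the letters in this window. The 4 windows are shown because they carry the full motif, which stands in capitals. They are 5′ to 3′ on the strand of the gene, at chr8:105566050-105566079 (minus strand), chr17:26676387-26676416 (plus), chr16:44139373-44139402 (minus) and chr16:45158746-45158775 (plus) in the order given.
Atp6v0d1: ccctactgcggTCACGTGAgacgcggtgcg
Atp6v0e: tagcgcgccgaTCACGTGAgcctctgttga
Atp6v1a: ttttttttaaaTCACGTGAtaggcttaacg
Atg3: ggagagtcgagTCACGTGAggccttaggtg
The first base of the motif lies 4 bases before the start in Atp6v0d1 (-4), at position 3 in Atp6v0e, at -132 in Atp6v1a and at -72 in Atg3. None of these 4 genes was called in a comparison below. None of the 4 ATG8 promoters searched, those of Gabarap, Gabarapl1, Gabarapl2 and Map1lc3b, holds either motif. The other 12 members, among them Map1lc3a, Atp6v1b2, Deptor, Rb1cc1 and Becn1, had no matching promoter and were not searched.

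Most V-ATPase and ATG8 genes stood at higher levels than most of the other members. At least 10 counts in all 14 libraries were reached by 16 of 24 V-ATPase genes, 4 of 5 ATG8 genes, 7 of 26 core ATG genes and 1 of 3 cargo receptors, and by no mTOR, TFEB or LAMP gene. Levels are given in CPM, and between genes only per kb of annotated exon (CPM per kb). The median tested V-ATPase gene had a mean level of 172.5 CPM per kb over the 14 libraries and the median ATG8 gene 109.6, against 4.27 for core ATG genes and 2.93 for the mTOR and TFEB genes. The spread went the other way, with a median coefficient of variation over libraries of 40.2% for the V-ATPase, 45.3% for ATG8, 86.6% for core ATG and 97.8% for the mTOR and TFEB genes. Of the 64 members 22 had a library with no count.

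**Figure D1:**
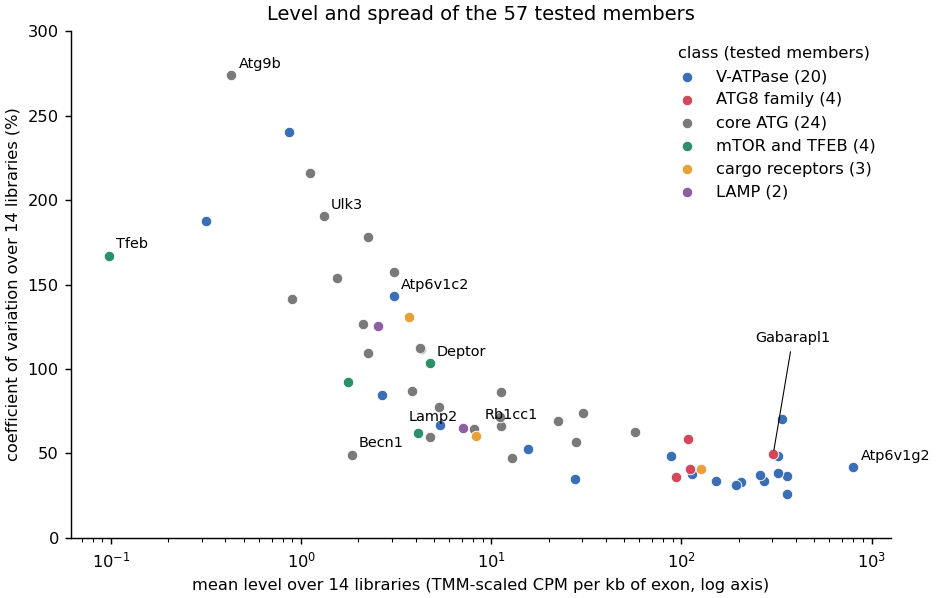
Mean level of each of the 57 tested members over the 14 libraries (CPM per kb of exon, log axis) against its coefficient of variation over libraries (%), 1 point per gene, coloured by class. V-ATPase and ATG8 genes fill the lower right, with Atp6v1g2 highest at 803 CPM per kb, and the low genes on the left vary most, with Atg9b at a coefficient of variation of 274%.

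By the mean over all libraries the most abundant member per kb was Atp6v1g2 (803 ± 337 CPM per kb, SD, n = 14), a stalk subunit whose G2 form is known from brain. It was highest in 13 of the 14 libraries, and in male PiC-MeA replicate 3 it stood at 170 CPM per kb, below Atp6ap2 at 354 and Atp6v1g1 at 212. Atp6v0e2 and Atp6ap2 followed at 359 each, then Atp6v1g1 (338), Atp6v0c (324), Atp6v1f (321), Gabarapl1 (304) and Atp6v1b2 (271). For these 7 the SDs over libraries, group differences included, were 91.3 to 239 CPM per kb. Gaps between neighbours in the order were smaller than these SDs, and no difference between genes within libraries was tested. The order moved with the group, and Gabarapl1 was the fourth in male PiC-PrL, the fifth in female PiC-MeA, the sixth in female PiC-PrL and between ranks 12 and 13 in the male PiC-MeA libraries. Outside the V-ATPase and ATG8 only Sqstm1 came near, at 127 CPM per kb. At the low end stood Tfeb, at 0.0972 CPM per kb, with at least 10 counts in 3 of 14 libraries. Exon lengths come from all annotated transcripts of a gene, so genes with long rare exons have their level per kb understated.

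Where a pump subunit is encoded by more than 1 gene, 1 form made up nearly all of the level per kb, with subunits G, C and, in some libraries, a as exceptions. Atp6v1b2, the B subunit of most tissues, made 99.98% to 100% of the B level in every library and Atp6v1b1, the form of kidney and inner ear, the remainder. Atp6v1e1 was the entire E level, Atp6v0d1 held 98.6% to 100% of d, Atp6v0e2 held 95.6% to 100% of e, and Atp6v0a1, the neuronal a subunit, held 73.6% to 100% of a, with a mean of 85.8% in male PiC-MeA against 98.5% in male PiC-PrL. The a share leaves out Tcirg1, a further a subunit gene whose name the rule did not match. Subunit G was shared, with a mean of 70.9% for Atp6v1g2 (43.1% to 86.5%) and 28.9% for Atp6v1g1. Subunit C varied most, with Atp6v1c1 at 13.9% to 100% of its level, but both C genes were low, at means of 2.65 and 3.08 CPM per kb. In male PiC-PrL Atp6v1c1 held 96.3% to 100% of the C level in all 4 libraries. These shares are descriptions without a test.

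**Figure D2:**
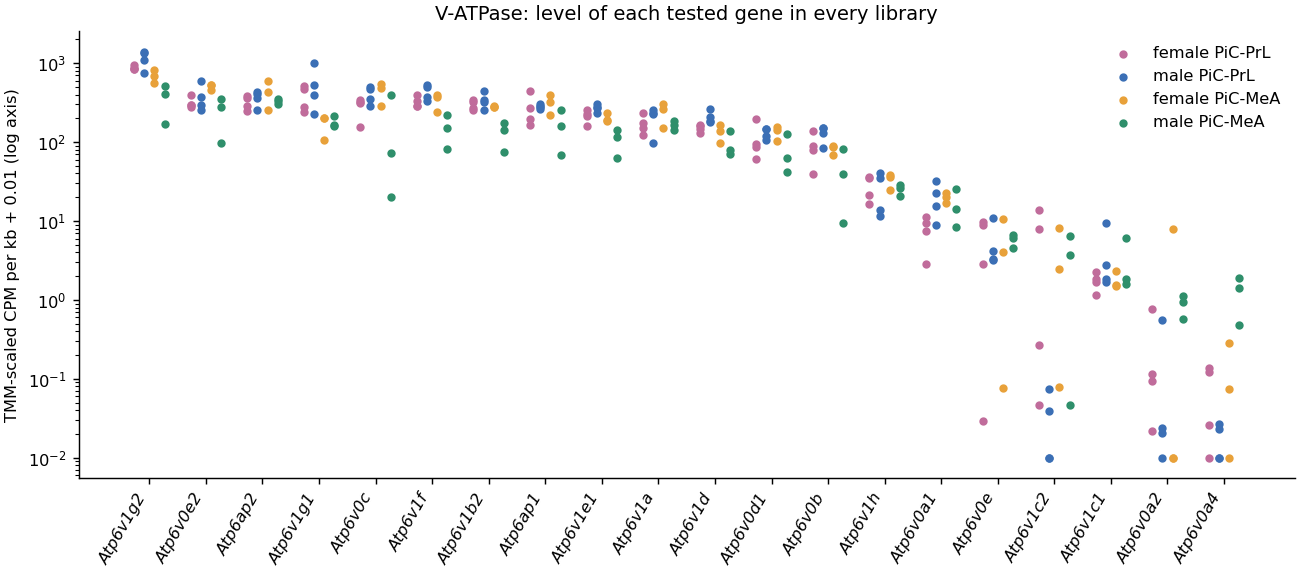
Level of each of the 20 tested V-ATPase genes in every library (CPM per kb + 0.01, log axis), genes ordered by mean level and libraries coloured by group. The genes from Atp6v1g2 to Atp6v0b form a plateau, in which the male PiC-MeA points are often the lowest, and Atp6v1c2, Atp6v0a2 and Atp6v0a4 reach 0 in 2, 3 and 4 libraries.

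Of the 7 members that did not enter the tests, Map1lc3b, Atg2a and Atp6v1e2 were listed at 0 in all 14 libraries. For Map1lc3b, the LC3B gene whose protein is the common marker of autophagosomes, a count of 0 allows up to 0.192 to 0.433 CPM, depending on the library, while its sister gene Map1lc3a was at 21.1 to 242 CPM. Its exons lie 99.2% outside the exons of other annotated genes, and those of Atg2a 100%. Why these genes have no count was not tested, and a 0 in this table does not show that they were not transcribed. The other 4, Atg4a, Atp6v0d2, Atp6v1b1 and Atp6v1g3, had counts too low for the filter.

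Among the comparisons within 1 sex or 1 projection, only that of the projections in males gave calls. In male PiC-MeA libraries, 3 members were lower than in male PiC-PrL, namely Gabarapl1 of the ATG8 family and the V1 subunits Atp6v1g2 and Atp6v1b2, and none was higher. These 3 were 5.26% of the 57 tested, where 0.603% of all 14599 genes tested were called in this comparison, 0.534% lower and 0.0685% higher (edgeR's quasi-likelihood test, Benjamini-Hochberg adjusted over all genes). At an unadjusted p under 0.05, 14 members passed, which is 24.6% of those tested and near the 22.2% of all genes. By direction the shares were unlike, with 10 members lower, 17.5% of those tested against 4.89% of all genes, and 4 higher, 7.02% against 17.3%. This was not tested, the background was not matched to the members for level, and the members were chosen with earlier results known. The groups did not overlap, with male PiC-MeA lower, for 12 members, against a background of 6.23% of genes, and with male PiC-MeA higher for 4, against 19.2%. The DESeq2 Wald test called 11 members and limma voom 11, 19.3% of those tested, against backgrounds of 13.9% and 17.9% over both directions. The numbers of detected genes and the total counts of the 2 groups did not overlap, nor did the summed neuronal markers, at 7169 to 9591 CPM in male PiC-MeA against 12745 to 20548.5 CPM in male PiC-PrL. Most of this sum was Snap25, at means of 6061 and 13299 CPM, while Map2 had means of 466 and 442 CPM. Of the 5 tested neuronal markers 2 were lower in male PiC-MeA without overlap. In females the neuronal sum was also lower in PiC-MeA, at 7531 to 10360.5 against 10819 to 16731 CPM. There each of the 5 tested markers overlapped. Of the 4 tested endothelial and mural markers 3 were higher in male PiC-MeA without overlap, though their sums, 17.4 to 86.9 and 18.3 to 139 CPM, overlapped. The summed astrocyte markers, at 977 to 1146 CPM, lay inside the 568 to 1414 CPM of male PiC-PrL. The part of these marker differences in the results was not tested.

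Gabarapl1, an ATG8 protein of the GABARAP branch that acts late in autophagosome formation, lies at chr6:129533160-129542346 on the plus strand (mm10, GENCODE M21, protein coding). Its level was 814, 474, 968 and 1176 CPM in male PiC-PrL replicates 1 to 4, and 212, 174 and 124 CPM in the male PiC-MeA libraries. It was 504, 507, 638 and 775 CPM in female PiC-PrL, and 659, 862 and 689.9 CPM in female PiC-MeA. Every male PiC-MeA library was below all 11 others, and the other 3 groups overlapped. The log2 change from male PiC-PrL to male PiC-MeA was -2.33 ± 0.35 (SE; edgeR adjusted p = 0.00391). Leaving out any 1 of the 14 libraries kept it between -2.54 and -2.14, with an adjusted p of at most 0.0378. The call was lost when only the 2 groups were fitted (adjusted p = 0.0680) and after adding detected genes as a covariate (-1.23, adjusted p = 1). That number was higher in all male PiC-MeA libraries than in any other, so it and the group cannot be told apart. Only 71.7% of its exon length is free of the exons of 1700101I11Rik on the other strand, and no strand setting of the counting is stated in the sources used here.

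Between the projections in males, the other ATG8 genes did not pass by edgeR, DESeq2's Wald test or limma voom. Gabarapl2 was 175, 175 and 115 CPM in male PiC-MeA against 202, 257, 181 and 414 in male PiC-PrL, without overlap but with a log2 change of -0.76 ± 0.43 (adjusted p = 0.334). Gabarap, the founding member of its branch, overlapped, at 147, 247 and 92.8 against 248, 153, 118 and 185 CPM (-0.12 ± 0.48, adjusted p = 0.954). Map1lc3a, an LC3 gene, was 87.4, 39.9 and 21.1 against 90.1, 35.4, 124 and 143 CPM (-0.99 ± 0.62, adjusted p = 0.41). The median log2 change of the 4 was -0.88, all 4 negative, where all genes had a median of 0.16. Shares of the family's level per kb, described without a test, leave out Map1lc3b, which was listed at 0 in every library. Gabarapl1 made 58.6% ± 6.09 in male PiC-PrL and 30.7% ± 4.09 in male PiC-MeA (SD, n = 4 and 3). In female PiC-PrL and PiC-MeA it made 46.2% ± 5.88 and 47.0% ± 5.93.

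**Figure D3:**
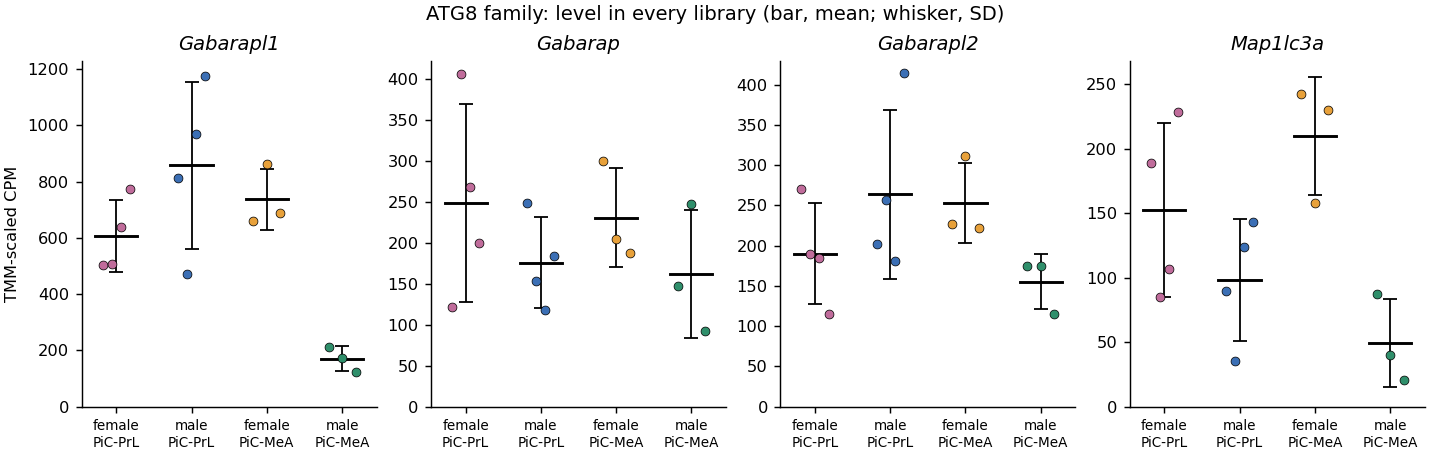
Level of the 4 tested ATG8 genes in every library (CPM), 1 panel per gene with its own axis from 0, with the mean (bar) and SD (whisker) of each group. The male PiC-MeA points of Gabarapl1, at 124 to 212 CPM, lie below all 11 other libraries, while Gabarap overlaps in all groups.

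Atp6v1g2 (chr17:35233660-35238767, plus strand) was the most abundant pump gene and fell in the same comparison. It was 1877, 3525, 2782 and 3338 CPM in male PiC-PrL and 1299, 1028 and 426 CPM in male PiC-MeA, a log2 change of -1.65 ± 0.33 (edgeR adjusted p = 0.0322). Levels were 2105, 2390.1, 2182 and 2111 CPM in female PiC-PrL and 2048, 1714 and 1389 CPM in female PiC-MeA. The groups did not overlap in either sex, but the change in females was -0.36 ± 0.32 (adjusted p = 0.842). Averaged over both sexes the change was -1.003 ± 0.23 (adjusted p = 0.0490), the only member called in that contrast, where 0.822% of all genes were called. In males the adjusted p rose to between 0.0537 and 0.128 without male PiC-PrL replicate 2, 3 or 4 or without male PiC-MeA replicate 2 or 3, so the call rests on each of these libraries. The number of detected genes, used next as a covariate, cannot be told apart from the male PiC-MeA group. With detected genes as a covariate the estimate turned to 1.35 (adjusted p = 1), and with the trend of each library with gene span removed it was -0.85 (adjusted p = 0.117). Averaged over sexes the covariate turned it to 0.57 (adjusted p = 1), and the call was kept without male PiC-PrL replicate 1 or male PiC-MeA replicate 1 and lost without any other single library.

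Atp6v1b2, the subunit that forms the ATP-binding head together with subunit A, lies at chr8:69088646-69113711 on the plus strand. It was 1371, 1692, 2325 and 1786 CPM in male PiC-PrL and 933, 748 and 392 CPM in male PiC-MeA, with a log2 change of -1.38 ± 0.29 (edgeR adjusted p = 0.0391). In females the 2 projections overlapped, at 1709.7, 1448, 1828 and 1338 CPM in PiC-PrL and 1536, 1492 and 1493 CPM in PiC-MeA. The call was lost without any 1 of 8 libraries, with adjusted p up to 0.157 without male PiC-MeA replicate 3. With the covariate, which cannot be told apart from the group, the estimate was -0.11 (adjusted p = 1). The partner subunit Atp6v1a overlapped, at 1355, 584, 1398 and 1526 CPM in male PiC-PrL and 1126, 868 and 997 CPM in male PiC-MeA (-0.29 ± 0.34, adjusted p = 0.771).

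Most other V1 genes had lower fitted levels in male PiC-MeA without passing edgeR's test. DESeq2's Wald test and limma voom also called Atp6v1d, Atp6v1e1, Atp6v1f and Atp6v1g1, and edgeR with DESeq2 size factors also called Atp6v1e1. The Wald test alone also called the low C gene Atp6v1c2. Its mean share of the C level was 41.2% in male PiC-MeA and 1.31% in male PiC-PrL. Atp6v1d, of the central rotor shaft, was 363, 644 and 326 CPM against 965, 817, 847 and 1220.3 in male PiC-PrL, without overlap (-1.11 ± 0.31, adjusted p = 0.0790). Atp6v1g1, the widely expressed G form, was 184, 184 and 241 CPM against 258, 449, 609 and 1149.7, also without overlap (-1.60 ± 0.47, adjusted p = 0.0792). Among the 10 tested V1 genes 8 had negative fitted changes, with a median of -1.22, and in 6 the groups did not overlap. The 20 tested V-ATPase genes had a median of -0.69, with 15 negative. This direction turned when the number of detected genes was a covariate, to a median of 1.12. That number and the group cannot be told apart here.

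In the V0 part and the accessory proteins edgeR called no gene. Atp6v0c, the proteolipid of the proton-carrying ring, was 1336, 243 and 69.1 CPM in male PiC-MeA, where male PiC-PrL had 1199.5, 967, 1603 and 1703 CPM. Replicate 1 lay within the male PiC-PrL range and the other two below it, and the log2 change was -1.32 ± 0.64 (adjusted p = 0.236). Without male PiC-MeA replicate 1 it was -3.13 and passed (adjusted p = 0.0105). That replicate had the lowest mitochondrial share of its group, at 4.80% of counts. Atp6ap2, the prorenin receptor that assists pump assembly, was steady, at 786, 876 and 927 against 669, 1058, 952 and 1129 CPM (-0.14 ± 0.30, adjusted p = 0.896). The 8 tested V0 genes had a median log2 change of -0.48, 5 of them negative. Atp6v0a4, an a subunit known from kidney, was higher, at 2.37, 9.50 and 6.93 CPM against 0.0641, 0.0815, 0 and 0, with a log2 change of 7.07 ± 2.16 that did not pass by edgeR (adjusted p = 0.0817) and was called by DESeq2's Wald test and limma voom. Limma voom also called Atp6v0b and Atp6v0c.

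**Figure D4:**
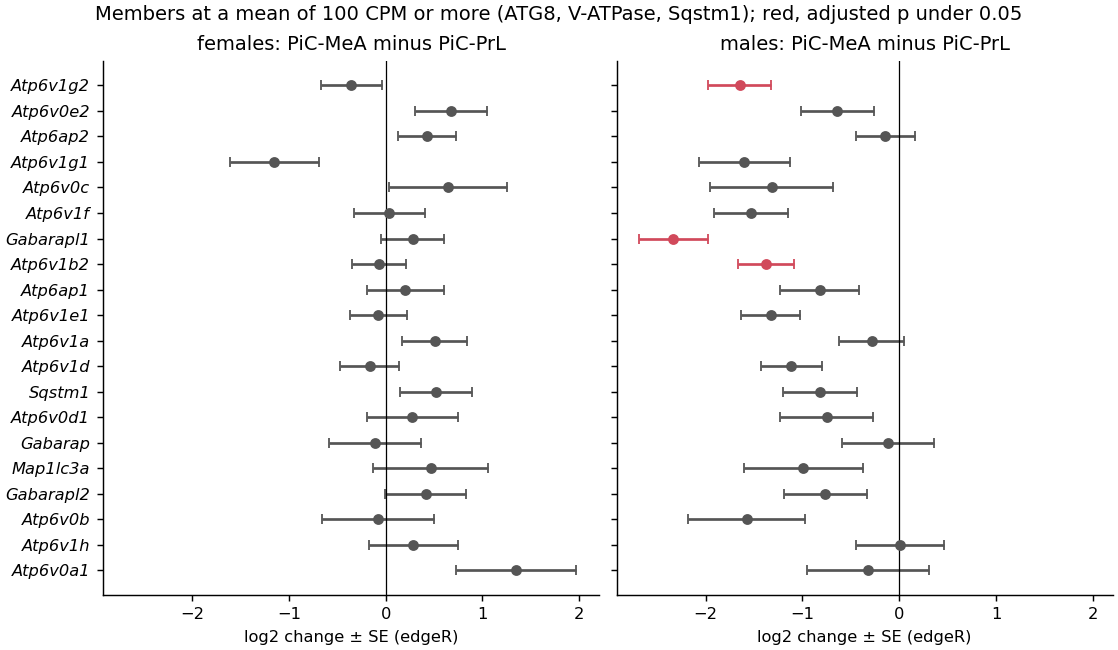
Fitted log2 change from PiC-PrL to PiC-MeA (edgeR, whiskers ± SE) in females (left) and males (right) for the 20 genes of the ATG8 family, the V-ATPase and Sqstm1 with a mean of at least 100 CPM, ordered by level per kb, on 1 shared axis. Red marks an adjusted p under 0.05, which Atp6v1g2, Gabarapl1 and Atp6v1b2 reached in males and no gene in females.

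Most core ATG genes were at low levels, and edgeR called none within males, where DESeq2's Wald test called Becn1 and Atg9b and limma voom called Ulk3. Becn1, the scaffold of the lipid kinase that marks the growing membrane, was 6.87, 2.92 and 0.577 CPM in male PiC-MeA against 12.7, 13.6, 12.1 and 22.6 in male PiC-PrL, without overlap (-2.14 ± 1.51, adjusted p = 0.501). Only 56.1% of its exon length is free of the exons of Cntd1 on the other strand, so its counts may hold reads of that gene. Atg12, a ubiquitin-like protein joined to ATG5, was 142, 152 and 116 against 238, 264, 352 and 434 CPM, without overlap (-1.24 ± 0.53, adjusted p = 0.168). Ulk3, a kinase of the ULK family, went the other way, at 7.89, 13.2 and 18.3 against 0.577, 0, 0 and 0 CPM (6.39 ± 2.79, adjusted p = 0.179). Atg10, the enzyme that passes ATG12 to ATG5, was 52.0, 76.3 and 153 against 8.65, 22.7, 59.9 and 4.80 CPM, with overlap (1.96 ± 0.97, adjusted p = 0.247). Ulk1, the kinase that starts the pathway, overlapped, at 26.7, 18.6 and 12.99 against 9.74, 67.9, 15.6 and 112 CPM (-1.40 ± 1.59, adjusted p = 0.757). The 24 tested core ATG genes had a median of -0.29, with 15 negative and 9 positive.

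Between the projections in males, cargo receptors and lysosomal membrane proteins were called by none of these 3 tools. Sqstm1, which links ubiquitinated cargo to ATG8 proteins, was 307, 227 and 224 CPM in male PiC-MeA and 335, 291, 425 and 735 CPM in male PiC-PrL (-0.82 ± 0.38, adjusted p = 0.211). Replicate 1 of male PiC-MeA lay above replicate 2 of male PiC-PrL, and the other two lay below all male PiC-PrL libraries. Lamp2, whose A isoform is a receptor of chaperone-mediated autophagy, was 53.8, 81.5 and 127 CPM against 76.8, 0.489, 80.1 and 1.11 (1.14 ± 1.18, adjusted p = 0.722), and 2 of the male PiC-PrL libraries were near 0. Lamp1, usually an abundant lysosomal protein, had a mean of 6.77 CPM over the 14 libraries and no group mean above 8.64 CPM.

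The mTOR genes varied from tube to tube. Deptor, an inhibitor that binds mTOR (chr15:55112317-55259271, plus strand), showed the largest fitted change of the named members, in females. It was 39.5, 0.645, 70.6 and 67.7 CPM in female PiC-PrL and 0.0812, 0 and 0.257 CPM in female PiC-MeA, from 1, 0 and 4 counts. It was 71.5, 4.56, 99.7 and 139 CPM in male PiC-PrL, and 15.8, 26.6 and 52.5 CPM in male PiC-MeA. The 3 female PiC-MeA libraries lay below all 11 others, of which 1 in each PiC-PrL group was itself low. The log2 change from female PiC-PrL to female PiC-MeA was -8.48 ± 1.94, a fitted value that depends on the prior count, and did not pass (edgeR adjusted p = 0.370). DESeq2's Wald test and edgeR without a filter on low counts called it (adjusted p = 5.82e-08 and 0.00484), and limma voom did not (0.0608). Male minus female within PiC-MeA was 7.98 ± 1.92 (adjusted p = 0.298 by edgeR, called by the other two tools), and the contrast averaged over sexes was -4.90 ± 1.16 (adjusted p = 0.0535). Within males the projections overlapped (-1.32 ± 1.35, adjusted p = 0.718).

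Mtor, the kinase itself, was 49.8, 81.9, 34.1 and 42.3 CPM in female PiC-PrL, 41.2, 37.9, 7.92 and 0.185 in male PiC-PrL, 92.8, 35.7 and 64.9 in female PiC-MeA, and 44.7, 35.7 and 12.7 in male PiC-MeA. All 4 groups overlapped. Rptor, the scaffold of mTOR complex 1, was 28.02 to 50.4 CPM in male PiC-MeA, above the 0.554 to 22.2 CPM of male PiC-PrL (2.32 ± 1.43, adjusted p = 0.403). Tfeb was at 0 to 3.32 CPM in every library, at the edge of detection, and no comparison of it passed by edgeR, DESeq2 or limma voom.

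**Figure D5:**
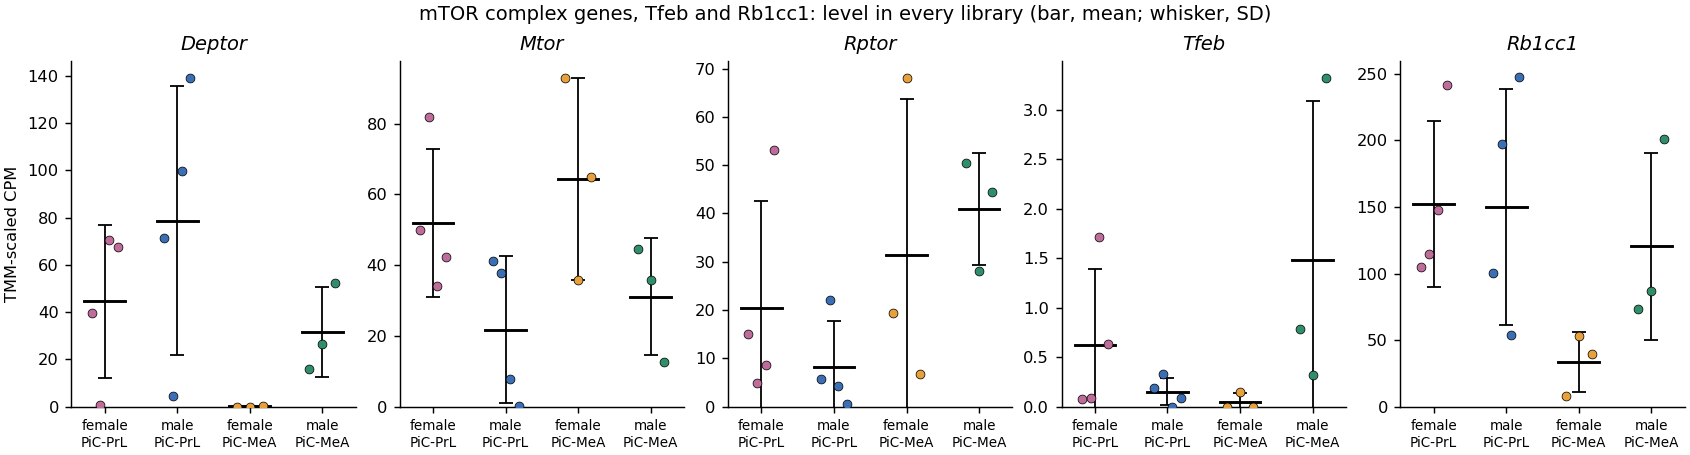
Level of Deptor, Mtor, Rptor, Tfeb and Rb1cc1 in every library (CPM), 1 panel per gene with its own axis from 0, with the mean (bar) and SD (whisker, clipped at 0) of each group. Deptor is at 0 to 0.257 CPM in the 3 female PiC-MeA libraries, and Rb1cc1 is lower there, at 8.37 to 52.9 CPM, than in the other groups, at 54.0 CPM or more.

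In females the projections differed in no member after adjustment (edgeR, 0 of 57, background 0%). At an unadjusted p under 0.05, 4 members passed (background 11.1%), DESeq2's Wald test called 2, Deptor and Rb1cc1 (background 4.3%), and limma voom none (background 0.212%). Groups did not overlap for 3 members higher in PiC-MeA (background 4.47%) and 4 lower (background 3.97%). Rb1cc1, the FIP200 scaffold of the ULK1 complex, was among the lower ones, at 8.37, 52.9 and 39.3 CPM in female PiC-MeA against 105, 115, 148 and 241 in female PiC-PrL (-2.18 ± 0.73, adjusted p = 0.403). Atp6v1g1 was 227, 121 and 231 CPM against 277, 579, 317 and 538 (-1.15 ± 0.46, adjusted p = 0.409). Atp6v0a1 was higher, at 133, 112 and 146 against 18.8, 49.2, 62.5 and 74.2 CPM (1.35 ± 0.62, adjusted p = 0.441). Atp6v0e2, a small membrane subunit of V0, was also higher without overlap, at 1242, 1264 and 1096 against 701, 664, 701 and 949 CPM (0.67 ± 0.37, adjusted p = 0.546). Atg4b, the protease that trims ATG8 proteins, overlapped, at 16.0, 74.6 and 80.7 against 2.74, 0.184, 5.99 and 22.8 CPM (2.85 ± 1.57, adjusted p = 0.542). The V-ATPase median was 0.13, with 12 of 20 positive, where all genes had -0.06.

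Sex within PiC-MeA gave no call (edgeR, 0 of 57, background 0%), with 13 members at an unadjusted p under 0.05 (background 12.4%). Of these, 10 were lower in males, 17.5% of the tested members against 2.05% of all genes, and 3 were higher, 5.26% against 10.3%. Here too the shares were not tested, the background was not matched for level, and the members were chosen with earlier results known. DESeq2's Wald test called 4, Gabarapl1, Map1lc3a, Atp6v1b2 and Deptor (background 5.32%). Limma voom called 10, these 4 and Sqstm1 included (background 12.1%). Groups did not overlap for 14 members lower in males (background 8.76%) and 7 higher (background 17.5%). Gabarapl1 had the smallest p, with a log2 change of -2.12 ± 0.36 (adjusted p = 0.106), and Atp6v1b2 changed by -1.12 ± 0.30 on the log2 scale (adjusted p = 0.298). Map1lc3a was 87.4, 39.9 and 21.1 CPM in males and 242, 158 and 230.4 in females (-2.09 ± 0.67, adjusted p = 0.298). All 4 ATG8 genes and 16 of 20 V-ATPase genes had negative fitted changes, with medians of -1.40 and -0.67, where all genes had 0.12. With detected genes as a covariate the V-ATPase median turned to 0.76, but their number and the group cannot be told apart. The summed astrocyte markers were higher in every male library, at 977 to 1146 against 262 to 387 CPM, and the endothelial and mural markers too, at 17.4 to 86.9 against 0.378 to 2.44 CPM, and their part in the result was not tested. This comparison shares the male PiC-MeA libraries with the comparison of projections in males.

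Sex within PiC-PrL gave no call either (edgeR, 0 of 57, background 0%). At an unadjusted p under 0.05, 3 members passed (background 14.3%), DESeq2's Wald test called 2 (background 6.97%) and limma voom none (background 0.0548%). The groups did not overlap for 1 member, Atp6v1d, higher in males at 965, 817, 847 and 1220.3 CPM against 679, 738, 754 and 594 in females (0.48 ± 0.28, adjusted p = 0.489, background 1.49%), and for none lower (background 2.02%). Atp6v0a1 was 59.0, 213, 102 and 147 CPM in males against 18.8, 49.2, 62.5 and 74.2 in females, with overlap (1.35 ± 0.59, adjusted p = 0.306). Of the 20 tested V-ATPase genes 16 had positive fitted changes, with a median of 0.25, where all genes had -0.02.

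Summed over its genes, the pump amounted to 11630.3, 10593, 10373 and 12383 CPM in female PiC-PrL and 11264, 13395, 14383 and 17084 CPM in male PiC-PrL. In PiC-MeA it was 14324, 12990 and 9764 CPM in females and 9309, 7021 and 4586 CPM in males. Male PiC-MeA libraries had the 3 lowest sums, and male PiC-MeA replicate 3, which was also the library with the lowest total count, had the lowest. The core ATG sums, at 942, 826 and 954 CPM in male PiC-MeA, were also below every male PiC-PrL sum, at 1067, 1152, 1084 and 1632 CPM. They overlapped with those of both female groups, at 885 to 1171 CPM in PiC-PrL and 706 to 1043 CPM in PiC-MeA, and no difference between the classes was tested.

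Averaged over both projections, no member differed by sex (edgeR, background 0.0137%), with 5 members at an unadjusted p under 0.05 (background 10.7%), 4 called by DESeq2's Wald test (background 4.32%) and none by limma voom (background 0.0274%). Averaged over both sexes, 14 members passed an unadjusted p of 0.05 between projections (background 17.4%), DESeq2's Wald test called 10 (background 10.2%) and limma voom 7 (background 8.75%). Beside Atp6v1g2, the members closest to a call were Gabarapl1 (-1.03 ± 0.24, edgeR adjusted p = 0.0509), Deptor (-4.90) and Atp6v1g1 (-1.38 ± 0.33, adjusted p = 0.0537). The test of whether the sex difference itself differed between the projections called none (edgeR, background 0%), with 13 members at an unadjusted p under 0.05 (background 15.6%), 6 called by DESeq2's Wald test (background 8.05%) and 5 by limma voom (background 4.99%). For Gabarapl1 that difference was -2.62 ± 0.47 on the log2 scale (edgeR adjusted p = 0.152). It was called there by DESeq2's Wald test (adjusted p = 1.63e-05), limma voom (0.0147) and edgeR without a filter on low counts (0.00272), so whether its projection difference depended on sex rests on the tool and filter.

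The wider pathway was followed in 6 lists with 93 genes, of which 88 were tested: the class III PI3 kinase and membrane supply, inputs to mTOR complex 1, autophagosome fusion, other cargo receptors, lysosomal enzymes and membrane proteins, and partners of the V-ATPase. None of these genes was called by edgeR in any of the 7 contrasts. Between projections in males 10 of the 88 passed an unadjusted p of 0.05, all lower in PiC-MeA, which is 11.4% against 4.89% of all genes lower and 22.2% in either direction. The lysosomal enzymes and membrane proteins had positive fitted changes for 21 of 23 genes in males against females within PiC-PrL (median log2 0.66), where 48.7% of all genes were positive. Within PiC-MeA they had positive changes for 2 of 23 (median -0.58), where 53.6% of all genes were positive. In each of these comparisons 2 of the 23 had an unadjusted p under 0.05, so this is a description of signs without a test. The inputs to mTOR complex 1, 26 genes tested, had medians of -0.0048 and -0.088 in the same comparisons.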

How the data were processed

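RNA-seq libraries (SMART-Seq2, polyadenylated RNA) of 14 tubes were analysed from the raw count per gene that the authors deposited in 1 table, with no normalization and no pooling. Trimmomatic 0.39, HISAT2 2.2.1, SAMtools, featureCounts 2.0.1 and mm10 are named in the submitters' processing notes, without their settings. No annotation release, strand setting or handling of shared reads is stated in the sources used here. Of the table's 55401 genes, 54349 were found by identifier and version in GENCODE M21, which gave positions and exon lengths. All 64 members matched it.

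Genes were kept by filterByExpr (minimum count 10, minimum total 15), leaving 14599. After TMM scaling, the quasi-likelihood test of edgeR 4.0.16 with its robust option (R 4.3.3) was fitted over all 14 libraries, with 1 mean per group. Sex contrasts are male minus female, projection contrasts PiC-MeA minus PiC-PrL, and a gene was called at a Benjamini-Hochberg adjusted p under 0.05 over all genes. Averages and the difference of the sex differences came from the same fit. Levels are mean ± SD and log2 changes ± SE. A count of 0 was taken to allow 3 counts, which covers counting error only. Scripts were tested on simulated data for the sex contrasts within each projection, and not for the projection contrasts. Alternatives were DESeq2 1.42.0 size factors and Wald test, limma 3.58.1 voom with quality weights, other filters, a fit without the robust option or of only the groups compared, detected genes as a covariate, removal of the gene span trend, a replicate block, and leaving out libraries.

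The named genes were the ATG8 family, 12 set regulators and pump genes, every member called in a contrast, and the 3 members per direction with the smallest p in each contrast within a sex or projection, among those whose higher group had no library under 10 counts. Atg3, Atg9b and other members named only in passing were chosen after their values were seen. The members and lists were chosen with earlier results of these data known.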

Additional observations from a re-analysis of the deposited data

Results flagged for a closer look

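In the groups of 4 libraries, 58 sets of levels of named members were examined for 1 library far from the other 3, and 5 stood out. Chance gives about 1 in 20 only for normally distributed values, which these levels need not be. Becn1 was 22.6 CPM in male PiC-PrL replicate 4 against 12.1 to 13.6 in the others. Lamp2 was 110.2 CPM in female PiC-PrL replicate 2 against 28.8 to 42.4. Atp6v0c was 522 CPM in female PiC-PrL replicate 3, below the 1044 to 1141 of the others. Atp6v0e2 was 949 CPM in female PiC-PrL replicate 4 against 664 to 701. Ulk3 was 0.577 CPM in male PiC-PrL replicate 1 and 0 in the other 3, a tie with which any level above 0 stands out.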

How the results depend on the processing

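Counts of called members moved with the test, the filter and the libraries. Without a filter on low counts they were 3 for sex in PiC-MeA, 1 for projection in females, 5 for projection in males, 5 for projection averaged over sexes and 3 for the difference of the sex differences. The DESeq2 Wald test called 2 for sex in PiC-PrL, 4 for sex in PiC-MeA, 2 for projection in females, 11 for projection in males, 4 for sex averaged over projections, 10 for projection averaged over sexes and 6 for the difference. Voom with quality weights called 10 for sex in PiC-MeA, 11 for projection in males, 7 for projection averaged over sexes and 5 for the difference. Over all genes, projection in males had 88 calls, against 159 without a filter, 2022 by the Wald test, 2617 by voom, 38 with a replicate block and 5 with only the groups compared. Without the 3 male PiC-MeA libraries, sex in PiC-PrL and projection in females gave 0 called members, as with them.

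For projection in males, 0 were called with only the groups compared and 0 with detected genes as a covariate. For projection averaged over sexes, 0 were called with the stricter filter (10 counts in 7 libraries), 0 without the robust option and 0 with the covariate. The covariate turned Atp6v1g2 to 1.35 in males and 0.57 averaged over sexes, on the log2 scale (edgeR adjusted p = 1 in both). The cause was not tested, but the covariate also left 0 of all 14599 genes called in males. It cannot be told apart from the male PiC-MeA group.

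Leaving out 1 library at a time gave 1 to 6 called members for projection in males, 0 to 2 for projection averaged over sexes, 0 to 1 for sex in PiC-MeA and 0 in the other 4 contrasts. The 6, and the call for sex in PiC-MeA (Atp6v0c), came without male PiC-MeA replicate 1. Without male PiC-PrL replicate 2, 3 or 4 or male PiC-MeA replicate 2 or 3, only Gabarapl1 was called in males.

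Same-numbered libraries did not deviate together (19 pairs, r from -0.0388 to 0.0407). What the numbers stand for is not stated in the sources used here. A shared effect smaller than the spread between tubes could be missed, so a pairing is not excluded. With a replicate block, 1 member, Gabarapl1, was called for projection in males and 0 for projection averaged over sexes. Of the alternative log2 changes of named members, 4331 kept their direction and side of the threshold, 62 newly passed, 37 no longer passed, 2 that had passed reversed, and 223 changed sign with neither value passing. Of all sign changes 73 came with the covariate. At this depth 36 of the 64 members fell below 10 counts in 1 or more libraries, where counting error is wide.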
